A study of Mus musculus with 6 samples.

Results

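On custom Agilent protein binding microarrays, 16 DNA probes carried a composite ETS-CRE site that had been shortened base by base from its ETS end. The full site is the 16-mer ACCGGAAGTGACGTCA. The probes were found among the 75 custom sequences shorter than 60 bases: each keeps the first 10 and the last 34 bases of a common scaffold and holds between them only the last 15 to 0 bases of the 16-mer in forward orientation. They are 16 of 6889 custom sequences and of 10812 sequences in all, and the 60-base probe with the whole 16-mer between the same flanks (the intact probe) was their reference. A probe is named here by the number of site bases that it retains. Each of the 16 was printed at 24 spots per array and the intact probe at 48.

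The study measured how mouse GABPα and CREB1 bound designed DNA, to learn which composite sites favour binding of both together. The 6 arrays formed 3 groups of 2, which held CREB1 alone, GABPα alone, or GABPα with CREB1. The DNA-binding domains were made by in vitro translation for 2 h at 37 °C from 570 ng of plasmid in 250 µl, fused at the N-terminus to glutathione S-transferase (GST), and 230 µl went onto an array. For the mixed group, 66 ng of a plasmid for the CREB1 domain without GST was added, so the GST tag was on GABPα in that group. Only isolated domains were used, with no other protein region or cell extract, and the labels tag the domain of every sample as bZIP although GABPα belongs to the ETS family. Whether replicate arrays held independently made protein is not stated in the labels, and the spread behind the p-values may be technical.

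ETS factors such as GABPα recognise a GGAA core through a winged helix-turn-helix domain, and the bases on the 5′ side of the core modulate their affinity. CREB1 is a basic leucine zipper (bZIP) factor that binds as a dimer to the palindromic cAMP response element (CRE), TGACGTCA, each monomer contacting one side of the palindrome. In the 16-mer, positions 1 to 8 are called here the ETS bases and positions 9 to 16 the CRE, counted from 1 at the 5′ end of the site. Deletion from this end therefore removes the ETS bases first. The division is a naming: a change at position 9 also took the GABPα signal below background, though not to the level of the scaffold, as given below.

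The probes on which the results turn are given 5′ to 3′, with the retained bases of the site in capitals and the scaffold in lower case. They are the intact probe, the probes on either side of each loss of signal, and the scaffold without any site base.
intact probe: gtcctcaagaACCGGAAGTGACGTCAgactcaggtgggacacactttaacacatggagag
15-base probe: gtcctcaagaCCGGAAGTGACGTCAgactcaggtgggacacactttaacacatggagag
14-base probe: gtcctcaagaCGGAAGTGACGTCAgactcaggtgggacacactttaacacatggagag
13-base probe: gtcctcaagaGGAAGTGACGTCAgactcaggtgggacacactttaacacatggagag
12-base probe: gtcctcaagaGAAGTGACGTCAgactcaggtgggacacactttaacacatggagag
8-base probe: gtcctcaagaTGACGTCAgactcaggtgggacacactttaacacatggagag
7-base probe: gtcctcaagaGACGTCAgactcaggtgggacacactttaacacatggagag
6-base probe: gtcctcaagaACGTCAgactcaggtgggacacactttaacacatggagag
5-base probe: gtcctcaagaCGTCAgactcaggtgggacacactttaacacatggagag
4-base probe: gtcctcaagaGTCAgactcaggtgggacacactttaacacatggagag
0-base probe: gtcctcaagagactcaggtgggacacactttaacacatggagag

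The flank moves inward as the site is shortened, so scaffold bases take the place of deleted ones. The outer flank ends in A, and the 15-base probe therefore still reads ACCGGAAGTGACGTCA across the junction: its label as a deletion holds for the design, but the site is whole. Aligned from its inner end, the 14-base probe differs from the 16-mer by A1G+C2A and the 13-base probe by C2G+C3A, where the first letter of each change is the 16-mer's base and the last the probe's. The 12-base probe differs by C2A+C3G+G4A, the first change in this order that enters the GGAA core. GGAA (searched on both strands) was found in the probes of 15, 14 and 13 bases and in 56.5% of all custom sequences. CCGGAA, which contains GGAA, was found in the 15-base probe and in 39.3% of custom sequences. TGACGTCA was found in the 8 probes of 15 to 8 bases and in 25.3% of custom sequences. The last 8 bases of the site window read AGACGTCA (T9A) in the probes of 7 and 5 bases, GAACGTCA (T9G+G10A) in the probe of 6 bases and AAGAGTCA in the probe of 4 bases. GACGTCA, which is part of TGACGTCA, was found in 10 of the 16 probes and in 38.6% of custom sequences, and its inner part CGTCA in 11 of 16 and in 69.4%. The bZIP site TGACTCA, present in 15.5% of custom sequences, was in none of the 16 probes, and the scaffold by itself held none of these motifs.

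Signals are given as the mean log2 processed intensity over a probe's spots minus the 75th percentile of the array, called scaled log2 signal. A probe counted as above background on an array where a share of over 0.5 of its spots passed the scanner software's test of being well above local noise. The share of all sequences that passed was 16.7 to 23.9% on arrays that read GABPα and 55.3 and 59.3% on those that read CREB1. The correlation between the 2 arrays of a group, taken across the custom sequences, was 0.997, 0.997 and 0.993, which describes the arrays and is not a test, since sequences are not replicates. For GABPα alone, 1 of the 16 shortened probes passed that test on both arrays, against 23.9% of custom sequences. With CREB1 added the number was 2, against 30.2%, and for CREB1 alone it was 11, against 86.2%. Where a probe was not well above background in a group, its difference from a brighter probe is given as "at least", computed against the lowest signal that was above background on the same arrays. It is a bound for the processed signal and not for other measures of the same spots.

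The 15-base probe, which retains the 16-mer through the flank's A, gave the signal of the intact probe in every group. For GABPα alone the intact probe read -0.22 and -0.14 on the 2 arrays and the 15-base probe -0.20 and -0.08. With CREB1 the values were 0.67 and 0.44 for the intact probe and 0.66 and 0.55 for the 15-base probe. For CREB1 alone they were 1.15 and 0.87 against 1.21 and 0.89. On each array the 2 probes lay within 0.11 of each other. The 15-base probe exceeded the intact probe by 0.04 ± 0.03 for GABPα alone (SD, n = 2; limma adjusted p = 0.763), by 0.05 ± 0.09 with CREB1 (limma adjusted p = 0.708) and by 0.04 ± 0.03 for CREB1 alone (limma adjusted p = 0.772). The 95% intervals of these differences ran from -0.21 to 0.29, from -0.21 to 0.30 and from -0.21 to 0.29.

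GABPα alone lost its measurable signal at the next step. The 14-base probe, in which GGAA and the whole CRE remain and the bases before CGGAA are GA in place of AC, read -4.70 and -4.74, below background at all of its spots. As processed intensity it gave 159 and 304 on the 2 arrays, where the intact probe gave 3632 and 7471. Against the intact probe this was a loss of at least 6.27-fold, and against the 15-base probe of at least 6.44-fold. The fitted difference from the intact probe was -4.54 (limma adjusted p = 9.30e-21). That p-value is not a test of the bound, since 100% of the 14-base probe's spots carried substitute values. The 13-base probe read -4.61 and -4.73, and the 13 probes of 12 to 0 bases lay between -4.79 and -4.58, also all below background, where the scanner software reports substitute values and levels have no order. In the losses fit, 15 of the 16 probes were lower than the intact probe in GABPα alone, and 88.1% of all rows of that fit were lower as well. The members' median difference was -4.50 and that over all rows -4.49, so the count by itself does not set these probes apart.

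In values without such substitutes, the 14-base probe stayed above the shorter ones for GABPα alone. In the authors' deposited table, whose entries are medians of spot signal minus local background, the 14-base probe held 16.3 and 9.60% of the intact probe's signal. The 13-base probe held 7.27 and 4.50%. The probes of 12 to 0 bases held 2.04 to 8.64% in the same table, a range that includes the scaffold without site, at 8.51 and 5.09%. The 13-base probe was therefore not above the scaffold on either array. The step from 14 to 13 bases was -1.06 with normexp background correction (limma adjusted p = 4.97e-06) and -1.13 in the authors' deposited table (limma adjusted p = 0.00637), but 0.05 in the processed signal, where both probes carry substitute values.

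With CREB1 present, 3 single-base steps lowered the GABPα signal: 15 to 14, 14 to 13 and 13 to 12 bases. The 14-base probe read -1.23 and -1.27, with 91.7% of its spots above background on the first array and all on the second. Its log2 difference from the intact probe was -1.81 ± 0.13 (SD, n = 2), or 3.50-fold lower, with a limma adjusted p of 1.01e-12. The next deletion took the 13-base probe to -4.05 and -4.14, a further loss of at least 3.27-fold, with 16.7% and 0% of spots above background. The step from 13 to 12 bases, which breaks GGAA, was -0.79 ± 0.09 (SD, n = 2; limma adjusted p = 1.99e-06), but both probes were below background, so no fold is given. The probes of 12 to 0 bases then lay together between -4.93 and -4.83. In the authors' deposited table the 14-base probe held 34.2 and 36.0% of the intact signal and the 13-base probe 12.001 and 9.34%, against 2.73 and 1.33% for the scaffold without site. There the 12-base probe had fallen to intensities of 208.75 and 68, close to the 202.75 and 115.5 of the scaffold, whereas the 13-base probe stood at 890.75 and 814. In the losses fit 15 of 16 probes were lower than the intact probe with CREB1, against 96.5% of all rows, and the medians were -5.43 and -5.41.

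Addition of CREB1 was tested directly between the 2 groups in which GABPα carries the tag. Of the 16 probes 3 were called by limma at an adjusted p under 0.05, all higher with CREB1, where 6.73% of all 10812 sequences were called higher and 3.58% lower. Across all sequences the median difference was -0.18 under this scaling and that of the 16 probes was -0.19. The 14-base probe rose by 3.47 as fitted (SE 0.05, limma adjusted p = 0.00363), by 3.47 on each of 2 slides that held an array of both groups. Because it was below background without CREB1, the measured increase is at least 2.98-fold. By the fitted increase it ranked 39 of 10812 sequences, but by that bound it ranked 124 of the 424 sequences that were below background without and above background with CREB1, whose median was at least 2.27-fold. Its call was lost when either array of GABPα alone was left out (limma adjusted p = 0.0562 without replicate 1 and 0.0649 without replicate 2), and in the authors' deposited table (2.18, limma adjusted p = 0.543).

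The other 2 called probes rose less. The 15-base probe, with its whole site, was higher by 0.74 (SE 0.08, 1.67-fold, limma adjusted p = 0.0300), as was the intact probe (0.74, SE 0.11, limma adjusted p = 0.0492), but under a scaling to the 75th percentile of all spots the same differences were -0.11 and -0.12. That scaling moved the median of all sequences to -1.04. Relative to the median of all sequences the 15-base probe stood at 0.93 and the intact probe at 0.92. These values are the same under both by arithmetic, since each scaling subtracts a constant per array. Only 16.7 to 23.9% of sequences were above background on these arrays, so that median is taken mostly over sequences below it. The 13-base probe was higher by 0.58 (SE 0.08, limma adjusted p = 0.0419), or -0.28 under the other scaling, and was below background in both groups. The probes of 12 to 0 bases differed by -0.25 to -0.15 and none of these 13 was called. With the slide, which is also the replicate number, as a block, 1 of the 16 probes was called, the 14-base probe (limma adjusted p = 0.0253). The 15-base and 13-base probes were then at 0.0978 and 0.0877. The 15-base and 13-base calls were also lost without any single one of the 4 arrays, with limma adjusted p from 0.0822 to 0.157 and from 0.0822 to 0.203.

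A difference taken within each array cancels the scaling between arrays, and so tests whether the loss against the intact probe was different with CREB1. The 14-base probe lost less with CREB1 by 2.73 (SE 0.17, limma adjusted p = 1.59e-52), by 2.58 on the first shared slide and 2.89 on the second. All rows of this fit other than the named pairs of probes contain the same intact probe. Here limma pooled the spread completely and gave p-values that are too small. With the row's own spread the adjusted p was 0.0350. That spread is only partly measured, because the 14-base probe carried substitute values at all of its spots for GABPα alone. The losses fit shares that reference and pooled much of its spread (19.3 prior against 3 residual degrees of freedom), so its p-values may also be too small. With each row's own spread 15 losses were still called for GABPα alone, 15 with CREB1 and 8 for CREB1 alone, at adjusted p up to 0.00125. For probes below background that spread also includes substitute values. Measured against the detection limit, the difference is at least 0.84, or it is 1.49 in the authors' deposited table (limma adjusted p = 0.215). The 15-base probe did not pass the test (0.01, limma adjusted p = 0.969) and neither did the 13-base probe (-0.16, limma adjusted p = 0.375). The 13-base value rests on substitute values in GABPα alone, and it was 1.03 with normexp correction (limma adjusted p = 8.10e-05) and 0.89 in the authors' deposited table (limma adjusted p = 0.235). A smaller loss with CREB1 was also measured on related probes. The double substitution A1G+C2A, which changes the same site bases as the 14-base deletion, gave 2.23, or at least 0.33 against the detection limit. The 5 probes with the whole site at the very end that were below background for GABPα alone gave 2.12 to 2.62, or at least 1.87 to 1.99 in the processed signal. In the authors' deposited table their difference was smaller than that bound. There they held 20.1 to 41.3% of the intact signal without CREB1 and 58.6 to 72.0% with it. In all, 1 of 16 probes was called higher, where 9.18% of rows were, and 13 were called lower, where 84.6% were. Those 13, of 12 to 0 bases, were below background in both groups, so these calls are no measured difference.

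The change that the 14-base deletion makes in the site was also present as a double substitution, A1G+C2A, on a full-length probe, with 17 identical bases outward from the inner flank. With CREB1 that probe read -1.76 and -1.76, below the 14-base probe at -1.23 and -1.27. The deletion probe was thus higher by 0.51 ± 0.03 (SD, n = 2; 1.42-fold, limma adjusted p = 0.000429), although in the authors' deposited table the difference was 0.35 (limma adjusted p = 0.184). For CREB1 alone the same pair did not pass the test (limma adjusted p = 0.984), with a 95% interval from -0.26 to 0.25. For the 13-base probe and its equivalent C2G+C3A, both below background with CREB1, the difference was 0.52 ± 0.02 (SD, n = 2; limma adjusted p = 0.000307), and it was 0.20 in the authors' deposited table (limma adjusted p = 0.488). GABPα alone was below background on all 4 of these probes.

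CREB1 alone gave a flat signal as long as the CRE was whole. The scaled signals were 1.09 and 0.72 for the 14-base probe, 1.23 and 0.86 for 13 bases, and 1.22 and 0.82 for 12. They were 1.24 and 0.83 for 11 bases, 1.23 and 0.86 for 10, 1.26 and 0.85 for 9, and 1.24 and 0.81 for 8. The first array of the group was higher than the second for each of these probes, as for the intact probe. Against the intact probe, the 8 probes of 15 to 8 bases differed by -0.10 to 0.05 and none was called. Their 95% intervals reached at most from -0.36 to 0.31. The removal of all 8 ETS bases was thus not detectable in CREB1 signal at this precision. At most 8.33% of the spots of any of these probes were saturated on either array. In the authors' deposited table they held 83.1 to 107% of the intact signal.

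CREB1 signal fell when deletion reached the first base of the CRE. The 7-base probe, in which T9A leaves AGACGTCA, read -0.36 and -0.74, so that the step from 8 to 7 bases was -1.57 ± 0.03 (SD, n = 2; 2.98-fold lower, limma adjusted p = 1.84e-11). The 6-base probe read -0.74 and -1.08, and the 5-base probe, with -0.21 and -0.56, lay above the 7-base and 6-base probes on each array. The step from 7 to 6 bases was -0.36 ± 0.03 (1.28-fold lower, limma adjusted p = 0.00987). That call was lost without the first CREB1 array (limma adjusted p = 0.0681), with normexp correction (0.0775) and in the authors' deposited table (0.58). The step from 6 to 5 bases went up, by 0.52 ± 0.01 (1.44-fold, limma adjusted p = 0.000409), with 0.59 in the authors' deposited table, where it missed the threshold (limma adjusted p = 0.129). The outer flank ends in GA, so the deletion that leaves 5 bases restores GACGTCA, which the 6-base probe lacks, and its last 8 bases equal those of the 7-base probe.

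Against the intact probe the CREB1 signal fell by 1.56 for 7 bases (-1.56 ± 0.07, SD, n = 2; 2.95-fold), by 1.92 for 6 bases (-1.92 ± 0.04, 3.78-fold) and by 1.39 for 5 bases (-1.39 ± 0.05, 2.63-fold). The limma adjusted p-values were 3.41e-11, 6.13e-13 and 3.07e-10, and in the authors' deposited table the 5-base loss was -1.23 (limma adjusted p = 0.0510). As intensities in the authors' deposited table, the intact probe gave 49778.6 and 47417 and the 5-base probe 20260.75 and 21151.75. Loss of 1 further base, the C of CGTCA, left the 4-base probe at -4.82 and -4.74, below background at all spots and at least 13.3-fold under the 5-base probe. The probes of 4 to 0 bases were all at least 34.9-fold below the intact probe. In total 8 of 16 probes were lower than the intact probe for CREB1 alone, against 80.1% of all rows; the members' median was -0.75 and that over all rows -1.53.

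Substitutions that leave the same 8 bases at the CRE gave CREB1 signals near those of the deletions. T9A on a full-length probe read -0.67 and -0.94 and T9G+G10A -1.16 and -1.21. For GABPα alone, T9A, which leaves the ETS bases unchanged, read -3.11 and -3.58, below background on both arrays. In the authors' deposited table it held 35.3 and 20.7% of the intact GABPα signal, where the scaffold without site held 8.51 and 5.09%. The 7-base probe exceeded T9A by 0.25 ± 0.07 (SD, n = 2; limma adjusted p = 0.0944) and the 6-base probe exceeded T9G+G10A by 0.28 ± 0.20 (limma adjusted p = 0.0677), with 95% intervals from -0.03 to 0.54 and from -0.01 to 0.56. The 5-base probe exceeded T9A by 0.42 ± 0.05 (limma adjusted p = 0.00712), but at 0.101 with the row's own spread and 0.239 in the authors' deposited table. The 5-base and 7-base probes, which share 8 bases outward from the inner flank, differed by 0.17 ± 0.02 (limma adjusted p = 0.211, and 0.0186 with the row's own spread), with a 95% interval from -0.09 to 0.42.

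Among the probes below background for CREB1 alone, 3 to 1 bases lay between -5.74 and -5.51, and the scaffold without site was at -5.04 and -4.95. The 0-base probe stood above the 2-base probe by 0.63 ± 0.08 (SD, n = 2; limma adjusted p = 5.76e-05) in values that the scanner did not count as above background, and in the authors' deposited table by 0.45 (limma adjusted p = 0.161). The step from the 4-base probe, which retains GTCA, to the 3-base probe was -0.89 in the same range of values, and -0.49 in the authors' deposited table, where it missed the threshold (limma adjusted p = 0.301). On the 2 CREB1 arrays substitute values made up 82.6 and 62.5% of the 2-base probe's spots and 86.4 and 58.3% of the 3-base probe's. They made up 16.7 and 20.8% for the 0-base probe and 12.5 and 25% for the 4-base probe. Both differences thus compare a largely substituted probe with a largely measured one. Over the 15 single-base steps, 6 were called for CREB1 alone (4 lower and 2 higher), 3 for GABPα with CREB1 and 1 without it.

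Deletion from the other, CRE end was available in 15 probes that hold the site in reverse orientation, so end and orientation cannot be told apart in these comparisons. The reverse site ends in T and the inner flank begins with gactca. Each of these 15 probes, and the reverse intact probe, therefore reads TGACTCA across that junction. The ETS-end probes lack TGACTCA, so its presence cannot be told apart from end and orientation either. With 8 retained bases, which are then the ETS bases, GABPα alone read 0.47 and 0.40 on the CRE-end probe, above the intact probe on both arrays. The ETS-end probe with 8 bases was at least 9.60-fold lower. The limma adjusted p of 1.83e-20 belongs to the fitted difference, in which the ETS-end probe has substitute values only. On that CRE-end probe the outer flank's A takes the place of the base opposite T9, so ACCGGAAGT is whole on the other strand. The CRE-end probe with 7 bases, which lacks ACCGGAAGT, read -4.65 and -4.75 for GABPα alone, below background. At equal retained length, 7 of 15 ETS-end probes were lower than their CRE-end partners for GABPα alone, those of 14 to 8 bases, and none was higher. With CREB1 these 7 were lower and 1 was higher, the 15-base probe, by 0.40 ± 0.01 (SD, n = 2; 1.32-fold, limma adjusted p = 0.00434). At 14 bases the ETS-end probe was 2.82-fold lower with CREB1 (-1.497 ± 0.03 on the log2 scale, SD, n = 2), where its partner keeps the ETS core and most of the CRE.

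For CREB1 alone the order was turned: 11 of 15 ETS-end probes were higher than the CRE-end probes of the same retained length, those of 15 to 5 bases, and 4 were lower, those of 4 to 1 bases. Of those 4, both probes of a pair were below background at 3 and 2 bases, and at 1 base the CRE-end probe was above it on 1 of 2 arrays, so no fold is given for these 3. At 12 bases the ETS-end probe was higher by 2.93 ± 0.57 (SD, n = 2; 7.60-fold), and at 9 bases by 3.63 ± 0.42 (12.4-fold). At 5 bases it was higher by 2.36 ± 0.19 (5.13-fold). Its partner there keeps only ETS bases of the site, beside TGACTCA across the junction, and read -2.70 and -2.78, above background. The part of TGACTCA in the CREB1 signal of the CRE-end probes was not tested. The 4-base ETS-end probe was below its CRE-end partner, at -2.75 and -2.55, by at least 2.77-fold. The limma adjusted p-values of these 4 comparisons lay between 1.45e-17 and 5.77e-14. The intact probe in reverse orientation read 1.47 and 1.17 for CREB1 alone, against 1.15 and 0.87 for the forward one. It also holds TGACTCA, and 23.9 and 25% of its spots were saturated there.

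The shortened probes are also shorter molecules, 59 to 44 bases long. The array held 20 probes, 59 to 40 bases long, that keep the whole forward 16-mer and lack flank bases. For CREB1 alone, the 8 that lack 1 to 8 outer bases (59 to 52 bases long) differed from the intact probe by -0.03 to 0.16 with none called, and the 51-base probe that lacks 9 by 0.05. Another 11 lack the whole outer flank and 0 to 10 inner bases (50 to 40 bases long). Of these, 8 differed by -0.20 to 0.22 with none called, with 0 to 26.1% of their spots saturated. The other 3 had 25 to 100% of their spots saturated on the CREB1 arrays, so their differences of 0.34 to 0.36, 2 of them called higher, are limited by the scanner's range. None of the 20 was called lower for CREB1 alone. The part of probe length in the CREB1 losses of the shortened probes was not tested.

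For GABPα the same probes fell in 2 ranges. Without the outer 1 to 8 bases, GABPα alone differed from the intact probe by 0.01 to 0.37 (3 of 8 called, all higher) and GABPα with CREB1 by 0.05 to 0.32 (2 of 8 called, all higher). The 14-base probe, 58 bases long, lies within this range of lengths. Once 9 outer bases were gone the values were -0.50 and -0.33. With the site at the probe's end, 5 of the 11 probes were below background for GABPα alone, and 3 were above background on 1 of 2 arrays. In the processed signal those 5 were at least 6.14- to 6.27-fold under the intact probe. The loss was smaller in the authors' deposited table. There the 5 held 35.3 to 41.3% of the intact signal on the first array and 20.1 to 26.1% on the second. The 3 that were above background on both arrays differed from the intact probe by -1.64 to -1.55 as means of the 2 arrays. The arrays lay apart, with scaled signals of -1.41 to -1.32 on the first and -2.23 to -2.11 on the second. With CREB1 the 11 probes were above background on both arrays and differed by -0.77 to -0.37. All 11 were called lower in both groups. The parts of probe length and of the distance to the probe's end in the GABPα signal of the shortened probes were not tested.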

How the data were processed

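The 6 arrays were single-colour (Cy5) protein binding microarrays of 179966 spots, 173403 of them not controls. Per the file headers, spot intensity was extracted with Agilent Feature Extraction 12.0.1.1, which subtracts background, removes spatial trends and replaces signals near background by substitute values; a spot was well above background at 13 SD. The authors' deposited table gives intensity per probe, and all 6891 entries on each array were recomputed within 0.01 as the median over spots of median signal minus local median background, with no scaling between arrays (values under 1 were set to 1 before taking logs).

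Outlier spots (2.26 to 4.55%) were left out, log2 processed intensities were averaged over the spots of a sequence, and each array was scaled by subtracting its 75th percentile, taken over spots of those 1143 sequences that were above background on every array. Between 17 and 24 spots of a shortened probe remained on each array. Comparisons used limma 3.58.1 in R 4.3.3 with Benjamini-Hochberg adjustment over all rows of a fit and an adjusted p threshold of 0.05. CREB1 addition was fitted over 10812 sequences on 4 arrays, and differences within an array were fitted over 6925 rows (custom sequences minus the intact probe, plus the named pairs of probes). The fit of CREB1 addition and the losses fit were run on simulated data with independent noise and no slide effect. The fit of the difference in loss was not simulated. Sequences were parsed with Python 3.11.15. With 2 arrays per group, the number of arrays limits the precision, and ± is the SD over the 2.

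The first arrays of GABPα alone and of GABPα with CREB1 shared a slide, as did the second; each CREB1 array was on a slide of its own, so for CREB1 alone slide and group cannot be told apart. For the first arrays of GABPα alone and of GABPα with CREB1, the deviations from their group means correlated at -0.24 across sequences. The main fits left the slide out, although the shared slides do pair these arrays and the correlation does not decide this. The slide as a block and a crossed pairing were also fitted. The members, the lists of probes and the tests were chosen with earlier results of these data known. By the rule for named probes, values on every array are given for the intact probe and for members above background, and the others by range and count; comparison probes were the CRE-end deletions of equal retained length, the substitutions that leave the same bases at the site, and the intact site with trimmed flanks. Alternatives were the scaling, background correction, averaging over spots, outliers, dim sequences, the authors' table, slide as a block, an intensity trend, all 6 arrays in one fit, each array left out, and, chosen after seeing the data, each row's own spread and the crossed pairing.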

Additional observations from a re-analysis of the deposited data

Results flagged for a closer look

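The 14-base probe is listed because its loss against the intact probe differed between the 2 groups with tagged GABPα: the loss with CREB1 minus the loss without it was 2.73 on the log2 scale (SE 0.17; limma adjusted p = 1.59e-52, or 0.0350 with the row's own spread), in the same direction on both shared slides. The probe was below background on both arrays of GABPα alone, with substitute values at all spots, and above it on both arrays with CREB1. Against the detection limit the difference is at least 0.84, and in the authors' deposited table it was not called. The same difference was 2.23 for A1G+C2A (at least 0.33) and 2.12 to 2.62 for 5 probes with the whole site at the end (at least 1.87 to 1.99), and 9.18% of all rows were called higher. These bounds are for the processed signal, and for the 5 probes the difference was smaller in the authors' deposited table.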

How the results depend on the processing

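Of the alternatives for single probes and pairs, 2583 of 2724 kept the side of the threshold, 87 lost the call, 39 gained it and 15 turned the direction of a difference called before or after. Of the 2583, 139 changed sign with no call either way, at values from -0.86 to 0.89; they include, in the authors' deposited table, the difference in loss of the 13-base probe (0.89) and the 0-base minus 2-base difference for GABPα alone (0.53). The number of the 16 probes called for the addition of CREB1 (3) was 14 with the 75th percentile over all spots, 13 with an intensity trend, 1 with no scaling, 1 with quantile normalization, 1 with all 6 arrays in one fit, 1 with the replicate block, 1 with crossed pairing as a block, 0 in the authors' deposited table (2 at an unadjusted limma p under 0.05), and 0 to 1 with an array left out. The percentile over all spots also changed the split over all sequences from 65.3% to 5.17% higher among the calls. For the difference in loss (14) it was 1 with dim sequences left out, 0 in the authors' deposited table (3 unadjusted), 14 to 14 with an array left out, and the replicate block moved no count other than that for the addition of CREB1 by over 1.5 times. For the CREB1 loss (8) it was 3 with dim sequences left out. The called steps for CREB1 alone (6) were 2 in the authors' deposited table and 5 to 6 with an array left out; those for GABPα alone (1) were 5 with normexp, 2 in the authors' deposited table and 2 with each row's own spread. CREB1 calls against the CRE-end deletions (15) were 13 to 15 with an array left out.

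Among the 15, direction turned with normexp for the 0-base minus 2-base difference (0.39 for GABPα alone, 0.34 with CREB1), for the 5-base ETS-end minus CRE-end difference in GABPα alone (0.31), for the steps in GABPα alone from 14 to 13 (-1.06) and 13 to 12 bases (-0.63), and for the difference in loss of the 13-base probe (1.03), of the 14-base probe minus A1G+C2A (-0.13) and of the 7-base probe minus T9A (0.032). It turned in the authors' deposited table for the 3-base ETS-end minus CRE-end difference with CREB1 (0.67), the step from 14 to 13 bases in GABPα alone (-1.13), and the difference in loss of the 13-base probe minus C2G+C3A (-0.25) and of the 14-base probe minus A1G+C2A (-0.19). It turned with the percentile over all spots for the addition of CREB1 at the 13-base (-0.28), 15-base (-0.11) and intact probe (-0.12). At least 1 side of each of these pairs, other than the 15-base and intact probes, was below background in the processed signal. The causes of the other changes were not tested. Signal near background limits every comparison among the probes of 13 to 0 bases for GABPα and of 4 to 0 bases for CREB1, and 2 arrays per group limit all of them.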
